A study of Platichthys stellatus with 16 samples.

Results

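Solute carriers are membrane proteins that move sugars, amino acids, ions, metals, nucleotides and other small molecules across the plasma membrane and the membranes of organelles. The features described here are the assembled genes of starry flounder (Platichthys stellatus, a flatfish) whose closest Swiss-Prot protein has a gene name that starts with slc, in either case. The names slc51a and slc17a7 were left out, which kept 192 of 194 such features under 146 distinct names, of 16270 features in the table. A gene name was carried by 11283 features in all. The choice used names and no measured value. A KEGG ortholog name was present on 174 of the 192, and in 174 of 174 it gave the same SLC family number as the Swiss-Prot name.

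The libraries came from brain, liver, gonad and muscle of female and male fish aged 3 years, with no treatment given in the labels. The 8 groups were female brain, male brain, female liver, male liver, female gonad, male gonad, female muscle and male muscle, each with 2 libraries, 16 in all. The series text names pituitary where the sample labels name muscle, and the sample labels were followed. The labels do not say which fish gave which library, so libraries of different tissues may share a fish, and p-values measure only the spread between these samples. Names stand for the closest known protein, mostly of human (55 features), zebrafish (46) or mouse (30), and a feature may be a fragment, an isoform or one of several copies of a gene. Identifiers are given without their prefix TRINITY. Genome positions were not used here.

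Carriers work alone or as exchangers: some follow the gradient of their substrate, others are driven by sodium, protons or a swapped solute. The mitochondrial family (SLC25) links metabolism in the matrix to the cytosol by passing ADP, ATP, phosphate, citrate, glutamate and other metabolites through the inner membrane. The SLC35 family brings nucleotide sugars into the Golgi and endoplasmic reticulum for glycosylation, the SLC30, SLC39, SLC31 and SLC40 families move zinc, copper and iron, and the SLC4, SLC9, SLC12 and SLC20 families move bicarbonate, protons, chloride and phosphate. In vertebrate tissues carriers are known for division of labour, such as glucose entry to the brain by SLC2A1 and iron release by ferroportin.

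Levels and differences are separate quantities in what follows. Levels are the authors' FPKM (fragments per kilobase of transcript, scaled to the depth of the library), given per library or as mean ± SD of 2 libraries. Differences are log2 differences of counts ± SE from edgeR's quasi-likelihood test (two-sided, TMM scaling, 16 libraries), with adjusted p-values over all 16270 features and a threshold of 0.05; a feature is called higher or lower when it passed. TMM sets the bulk of the listed features to no change. The table lists 51.43 to 80.45% of the fragments of a library, and scaling by the recovered total of each library in place of TMM moves the median of all features, so that shift and the split of calls under it are given once for each comparison. In bulk tissue, fewer cells of a type and less RNA per cell cannot be told apart.

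The listed counts of a library came to 5134221 (female muscle 2) to 12972574 (male gonad 2), and the 192 features held 0.525 to 1.26% of them. Each feature of the table stands at 0.31 FPKM or more in each library, so carriers silent in a tissue or sex are outside it. Of the 192, 6 had under 3 counts in at least 1 library, as did 724 of all features. The 2 libraries of a group correlated at r = 0.822 to 0.952 over the 192 features (log2 CPM, counts scaled to the library, a description across genes), and 24 (female brain) to 72 (male muscle) of the features differed over 2-fold between them on that scale. The tissue labels were checked against marker genes. Summed over the 8 matched hepatocyte features the liver libraries stood at 39620 to 87880 FPKM, against 14.95 to 160.4 in the others. Skeletal actin (acta1) averaged 66380 FPKM in female and 21220 in male muscle, against at most 23.66 in any other group, while another muscle gene, RYR1, was lowest in muscle (1.31 and 2.775 FPKM in female and male muscle, 4.445 to 20.27 elsewhere). The myelin gene MBP averaged 1611 FPKM in female and 144.7 in male brain and at most 5.91 elsewhere. A feature named after the neuronal enolase ENO2 did not follow the tissue labels, with 16000 and 1221 FPKM in female and male muscle, against 29.41 and 138.9 in female and male brain, so the summed neuron and glia list was highest in female muscle (14890 and 17130 FPKM). No ovary marker was matched, and the 1 matched testis marker, odf3, averaged 52.2 FPKM in the female and 49.09 in the male gonad, so the sex of the gonads rests on the labels.

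Mitochondrial carriers made up the largest share of summed solute carrier FPKM. Their 39 features held 22.5 to 48.7% of the summed FPKM of the 192, by library. Summed levels were 1104 ± 89.8 FPKM in female and 1482 ± 271 in male brain, 813 ± 253 in female and 1328 ± 302 in male liver, 3717 ± 174 in female and 1534 ± 132 in male gonad, and 1083 ± 308 in female and 1988 ± 250 in male muscle. The sum in female gonad rests largely on 1 feature, SLC25A6, an ADP/ATP carrier, and is 1566 FPKM without it, against 1167 in male gonad. Male muscle then stands highest, at 1650 ± 195 FPKM. SLC25A6 (DN145294_c1_g1) had counts of 4698 and 4228 in female gonad and at most 2077 in each other library. Its FPKM divides by an effective length that ran from 40 to 583 bases in a transcript of 1033, so its FPKM depends on how reads were shared among isoforms. Without SLC25A6 the family was not the largest in female liver 2 (675.4 FPKM, against 750.5 for metal carriers). The same held in male brain 2 (980.4, against 1133 for sugar carriers). The phosphate carrier SLC25A3 (DN128688_c2_g1) led in muscle, where female libraries averaged 451 FPKM and male libraries 668.

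The other families had their own places. Organic ion carriers summed to 1124 ± 120 FPKM in the female gonad, with 423.9 ± 16.2 in the male one and 444.6 or less in the other groups. That excess was 1 feature, SLC10A4: without it the sums were 421.4 ± 14.2 in female and 382.1 ± 33.3 in male gonad, with 441.3 ± 12.9 in male brain. Carriers of nucleotide sugars summed to 623.8 ± 80.5 FPKM in the female gonad, with 375 ± 73.8 in the male one, against at most 233.9 elsewhere. Nucleoside carriers stood at 354.7 ± 132 and 579.7 ± 170 FPKM in female and male gonad, about 207.7 and 203.3 in female and male muscle, and at most 140.3 in brain and liver. Most of that sum is a feature named Slc29a1 (DN146243_c2_g4) of 230 bases, with an effective length of 5 to 14 bases and 2 to 84 counts, so its FPKM of up to 593.95 is weakly grounded; without it the sums were 75.41 and 105.2 in female and male gonad and at most 59.71 in any other group. Sugar carriers summed to 216.5 ± 149 FPKM in the female brain and 819.8 ± 443 in the male one, against at most 207 elsewhere. The brain sums rest largely on SLC2A1. Its features DN144149_c2_g1 and DN139894_c4_g1 averaged 363 and 186 FPKM in male brain, and DN135494_c0_g5 stood at 43.63 and 238. Without DN144149_c2_g1 alone the family sums were 96.89 ± 35.2 in female and 456.5 ± 316 in male brain, against at most 190 elsewhere. Carriers of inorganic ions stood at 177.9 ± 15.7 in female and 609.7 ± 14.8 in male brain and at 290.5 ± 26 in female and 508.1 ± 34.9 in male gonad. The family named after monocarboxylates reached over 100 FPKM in male liver (113.7 ± 64.6) and male muscle (105.2 ± 43.6), where the SDs were wide. The male liver sum was mostly slc16a12b (101.59 and 23.64 FPKM) and slc16a10 (36 and 33.38), which carry creatine and aromatic amino acids. In male muscle SLC16A5 led, at 122.35 and 32.61 FPKM.

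**Figure D1:**
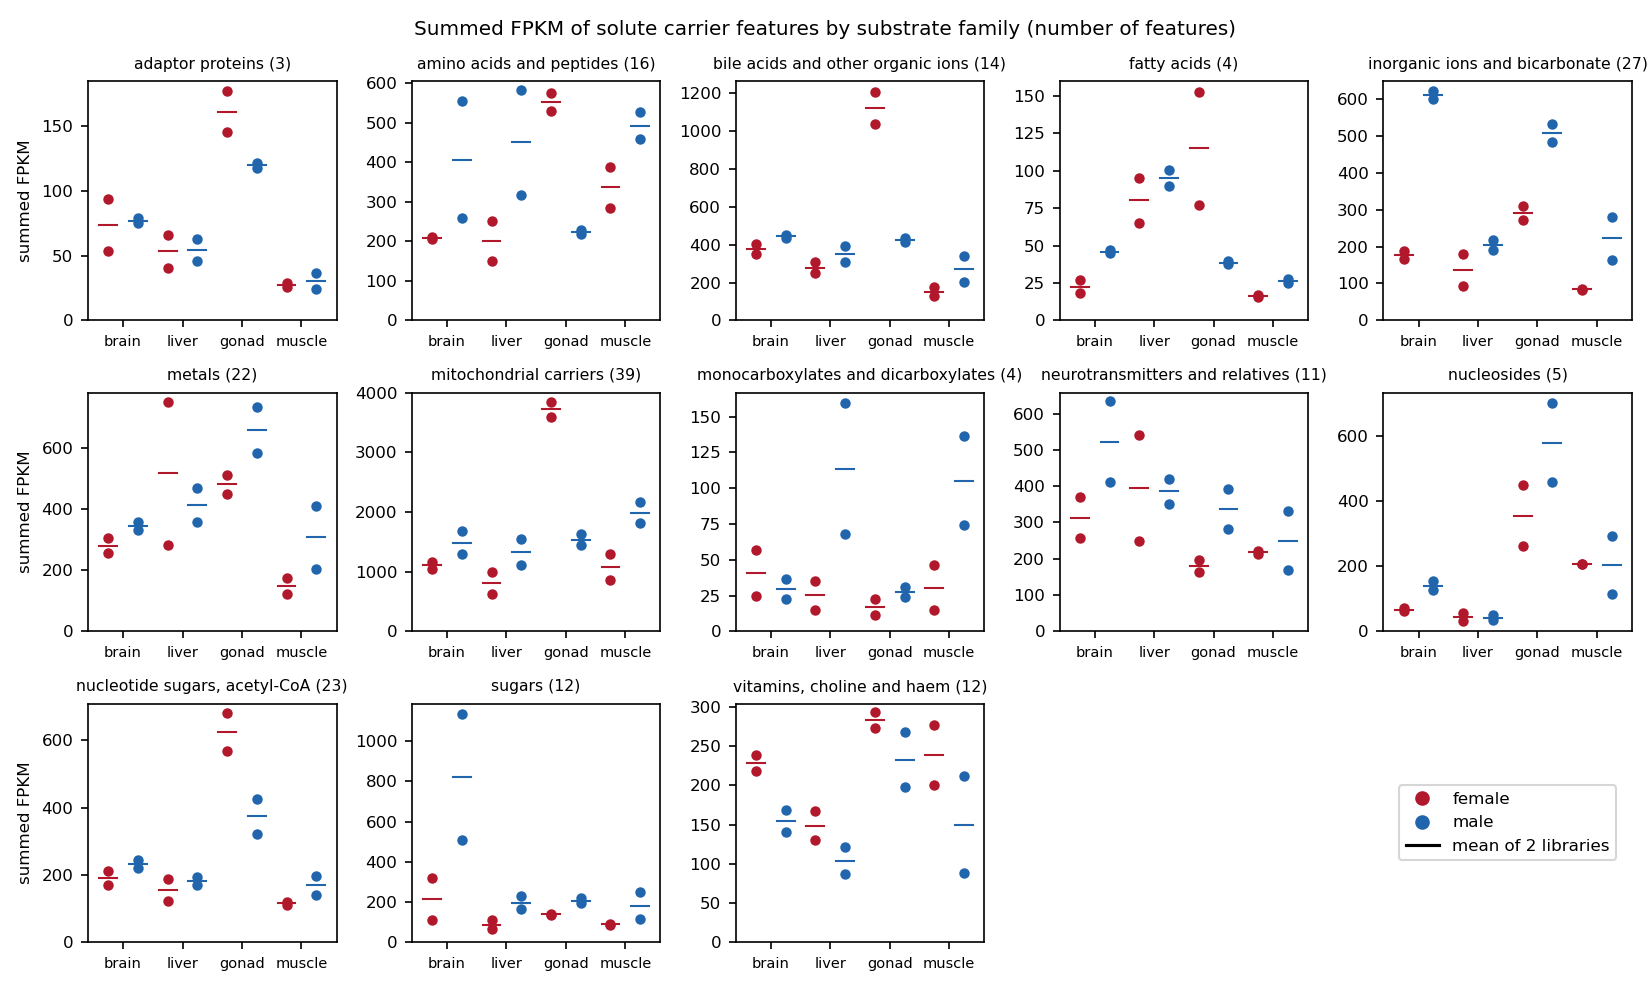
Summed FPKM (vertical axes, from 0) of the features of each substrate family in each of the 16 libraries, by tissue, with female (red) left of male (blue), a point per library and a dash for the mean of 2; the number of features stands in each title. Mitochondrial and organic ion carriers are highest in female gonad (3717 and 1124 FPKM), sugar and inorganic ion carriers in male brain (819.8 and 609.7 FPKM). The mitochondrial sum rests largely on SLC25A6, the organic ion sum on SLC10A4 and the sugar sum on SLC2A1. Without SLC25A6 the mitochondrial sum is highest in male muscle (1650 FPKM, against 1566 in female gonad).

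Several abundant carriers varied between the groups to different degrees, from 3.76-fold (slc30a7) to 32.2-fold (slc20a1b, DN141097_c0_g3) among the examples here. The zinc carrier slc30a7, which loads the Golgi, averaged 99.9 FPKM over the 16 libraries, with group means from 47.88 (female muscle) to 179.8 (female gonad). SLC22A13, an organic anion carrier, averaged 46.8 FPKM, with group means from 10.32 in female gonad to 80.62 in male muscle. The male muscle libraries were far apart, at 29.11 and 132.13 FPKM, and liver stood at 39.77 and 92.83 in females and 53.2 and 75.77 in males. The phosphate carrier slc20a1b (DN141097_c0_g3) averaged 22.6 FPKM, with 50.52 in female gonad and 1.57 in female muscle. The taurine carrier SLC6A6 (DN146302_c2_g1) averaged 50.3 FPKM and was lowest in female gonad (9.455) and highest in male brain (118.6). Monocarboxylate carriers were led by SLC16A5, at 21.3 FPKM, and nucleotide sugar carriers by SLC35A1 (24.6), SLC35C2 (23.8) and slc35a5 (20.9). Families follow the SLC number, so the monocarboxylate group also holds slc16a10, which carries aromatic amino acids, and slc16a12b, which carries creatine.

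Single features spread widely over the groups. The highest group mean was 2.45-fold to 355-fold above the lowest, with a median of 14.7-fold, beside 12.9-fold over all features. This ratio passed 100-fold for 10 features: SLC38A5, SLC7A1, SLC10A4, SLC27A2 (DN140721_c1_g1), SLC35F2, 3 of SLC2A1 and both of slc40a1. The highest mean fell in female gonad for 27.1% of the 192 (25.4% of all features), in male gonad for 23.4% (29.8%), in male brain for 20.3% (15.7%) and in male liver for 12.5% (5.57%). Female muscle was the lowest group for 67 of the 192 (34.9%, against 31.3% of all features).

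Each tissue was then set against the mean of the other 3 tissues, with both sexes in equal weight. The 4 comparisons share their libraries and are not independent. A stricter reading called a feature enriched where it passed and exceeded every other tissue by 2 or more on the log2 scale. Brain enrichment was found for 2 of the 192 (1.04%, against 1.77% of all features) and liver enrichment for 7 (3.65%, against 3.12%). Gonad enrichment was found for 1 (0.521%, against 2.39%) and muscle enrichment for 3 (1.56%, against 1.87%).

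In brain, sugar and bicarbonate carriers and a feature of the glutamate carrier of mitochondria were among the features that stood higher. Of the 192, 31 were higher and 54 lower (44.3%; background 43.2% of all features, 21.8% higher and 21.4% lower). Under recovered totals the split was 53 and 27, with a shift of 0.37 in the median of all features. The shares of all features were then 31.5% higher and 9.6% lower. The brain glucose entry carrier SLC2A1 had 3 features, and 3 of 3 were higher. The one with the most RNA (DN144149_c2_g1) stood at 39.2 and 200.1 FPKM in female and at 274 and 453 in male brain, against 3.12 to 78.2 (median 12.4) in the 12 other libraries. Its lowest brain library lies inside the range of the others, through male liver 1 and male muscle. It was 3.24 ± 0.41 higher (adjusted p = 4e-05) and enriched, at 2.51 ± 0.59 over muscle, the nearest tissue (adjusted p = 0.0037). DN139894_c4_g1 was enriched as well, at 2.37 ± 0.67 over liver (0.013), and DN135494_c0_g5 was 2.97 ± 0.39 higher. Of the 12 sugar carriers 4 were higher and 3 lower; the fourth was slc50a1 (1.67 ± 0.22), and the lower ones were slc5a9 and both features of SLC5A6, a carrier of biotin and pantothenate.

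SLC25A22 (DN132744_c2_g2), which takes glutamate into mitochondria, was the 1 feature whose 4 brain libraries lay clear of the 12 others among those higher. It stood at 39.5 and 45.2 FPKM in female and 15.9 and 15.3 in male brain, against 0.63 to 5.58 elsewhere, and was 2.83 ± 0.23 higher (adjusted p = 9.3e-07). The second SLC25A22 feature (DN140009_c0_g1) was not clear of other tissues. It stood at 11.28 and 16.64 FPKM in female and 31.83 and 40.65 in male brain, against 1.76 to 42.75 elsewhere. Among mitochondrial carriers as a whole 6 were higher and 12 lower of 39. Of the 27 inorganic ion carriers 8 were higher and 3 lower (12 and 1 under recovered totals). They included the sodium bicarbonate carriers Slc4a8 (2.39 ± 0.31) and Slc4a4 (DN125360_c3_g1, 2.30 ± 0.25), SLC4A7 (DN127445_c0_g2, 1.28 ± 0.27) and the phosphate carrier slc20a2 (1.03 ± 0.24). The second Slc4a4 feature (DN129668_c1_g3) was not clear of other tissues. It stood at 0.98 and 1.85 FPKM in female and 1.37 and 13.29 in male brain, against 0.37 to 49.43 (median 4.75) elsewhere. The name SLC4A7 has 4 features, whose pairwise correlations ran from -0.09 to 0.84. For SLC4A7 and slc20a2 only male brain lay above the other tissues. SLC4A7 stood at 7.86 and 5.75 FPKM in female and 91.35 and 51.4 in male brain, against 1.64 to 25.33 elsewhere. The levels of slc20a2 were 4.8 and 3.88 in female and 50.86 and 31.06 in male brain, against 0.98 to 22.2. Slc44a1, a choline transporter, stood at 164 and 118 FPKM in female and 36.8 and 25.8 in male brain and was 1.44 ± 0.21 higher (0.0001). Male gonad 1, at 117.6 FPKM, lay above both male brain libraries. SLC1A4, a carrier of small neutral amino acids, was 2.43 ± 0.27 higher in brain. Of 22 metal carriers 1 was higher (SLC30A1, a zinc exporter) and 8 lower. None of the 23 nucleotide sugar carriers was higher and 8 were lower, but under recovered totals 2 were higher and 0 lower, so the direction of that family in brain depends on the scaling.

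Liver held the largest excess of higher over lower calls: 79 of the 192 were higher and 31 lower (57.3%; background 46.2%, 24% higher and 22.2% lower), with a median of 0.42 beside -0.04 over all features. Recovered totals gave 43 higher and 76 lower, with a shift of -0.77, beside 11% higher and 50.8% lower of all features. The split of calls thus turns round under that scaling, and the excess is relative to the bulk of listed features. The medians were then -0.35 for the 192 and -0.81 for all features, so the 192 stood above that bulk under both scalings. The strongest features were both parts of slc40a1, ferroportin, which lets iron out of cells. The feature DN146780_c1_g3 stood at 58.4 and 281 FPKM in female and 52.6 and 112 in male liver, against 0.64 to 27.7 (median 2.73) elsewhere, and DN146780_c1_g1 at 56.8 and 208 in female and 44.2 and 91.8 in male liver, against 1.07 to 18.8. They were 5.85 ± 0.46 (adjusted p = 3.1e-07) and 5.46 ± 0.37 (7.7e-08) higher, and 4.22 ± 0.67 and 4.21 ± 0.55 above muscle, the nearest tissue. The copper importer SLC31A1 stood at 36.8 and 40.9 FPKM in female and 44.2 and 51.9 in male liver, against 2.07 to 33.3 elsewhere (2.30 ± 0.20, 9.6e-07). Of 22 metal carriers 10 were higher and 2 lower in liver (4 and 7 under recovered totals).

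Lipid precursors and amino acids had liver features too. Slc25a1, which exports mitochondrial citrate for fatty acid synthesis, stood at 33.9 and 55.6 FPKM in female and 52.2 and 71.9 in male liver, against 0.57 to 36 elsewhere. It was 3.75 ± 0.18 higher (adjusted p = 3.6e-09) and 2.63 ± 0.26 above brain. Both features named SLC27A2, a fatty acid transporter and acyl-CoA synthetase known from mammalian liver, were enriched under TMM: DN140721_c1_g1 was 4.40 ± 0.23 higher (7.1e-09) and DN140721_c1_g2 was 3.62 ± 0.34 higher (1.7e-06), though female gonad 2, at 104 FPKM, lay above each liver library of the second feature. Of 16 amino acid carriers 10 were higher and 2 lower (5 and 5 under recovered totals). The glutamine carrier SLC38A3 was 4.12 ± 0.44 higher (DN146300_c1_g1) and 3.18 ± 0.27 higher (DN148582_c3_g1), and SLC1A4 was 3.11 ± 0.26 higher. The family named after neurotransmitters had 11 of 11 features higher and 0 lower (5 and 0 under recovered totals). Of the 11, 4 are taurine carriers (SLC6A6), 1 is the creatine carrier Slc6a8, 1 the betaine and GABA carrier SLC6A12, 1 the amino acid carrier Slc6a15, 2 sialic acid exporters of lysosomes (SLC17A5) and 2 SLC18B1. Both SLC17A5 features were enriched (2.17 ± 0.46 and 2.11 ± 0.59 over gonad), but not under recovered totals (0.82, adjusted p = 0.17, and 0.77, adjusted p = 0.29). Under that scaling Slc25a1 (1.80 over brain) and the SLC27A2 features (1.72 and 1.12 over gonad) also fell short of the log2 difference of 2, though they passed the test, and both slc40a1 features (4.12 and 4.13) kept it.

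Some features stood clear below the other libraries in liver. SLC37A4, the glucose-6-phosphate carrier of the endoplasmic reticulum through which mammalian liver releases glucose, stood at 1.15 and 1.36 FPKM in female and 0.93 and 0.43 in male liver, against 4.25 to 41.9 (median 10.9) elsewhere. Its log2 difference was -3.07 ± 0.40 (adjusted p = 3.8e-05). SLC27A1, a fatty acid transporter known from mammalian muscle and fat, stood at 0.98 and 0.84 FPKM in female and 1.12 and 2.90 in male liver, against 7.25 to 25.5 elsewhere (-2.74 ± 0.29, 4.9e-06). SLC35F2 and slc25a30 had differences of -3.99 ± 0.51 and -3.44 ± 0.28. SLC10A1, the bile acid uptake carrier of mammalian hepatocytes, did not pass the test in liver: it stood at 71.0 and 67.3 FPKM in female and 27.1 and 29.9 in male liver, against 40.02 to 242 elsewhere, with its highest levels in female brain and female gonad.

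**Figure D2:**
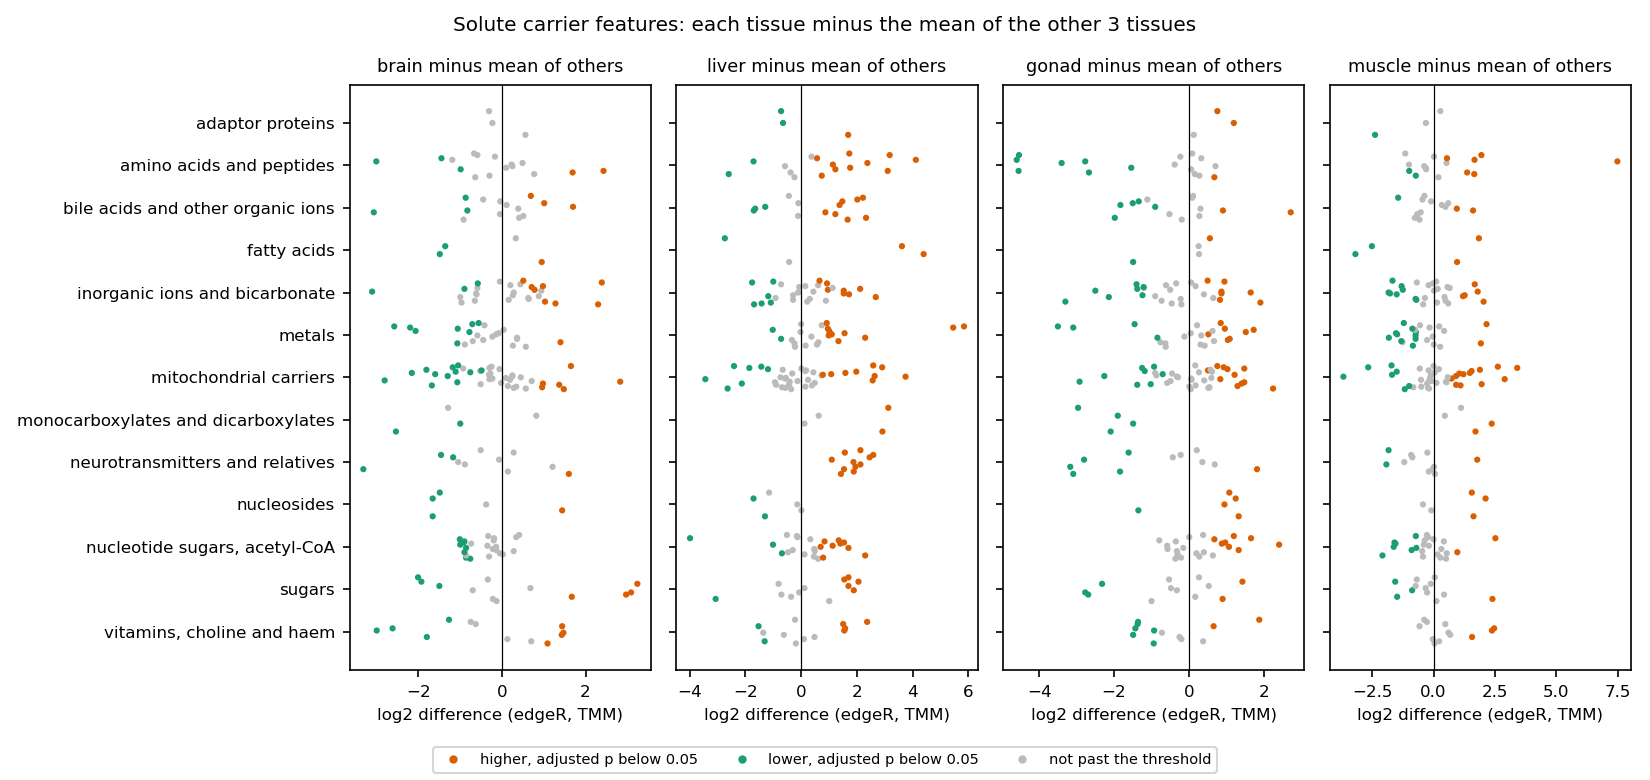
Log2 difference (horizontal axes, edgeR with TMM) of each of the 192 features between a tissue and the mean of the other 3, by substrate family, a point per feature, orange where higher and green where lower at an adjusted p below 0.05. In liver the neurotransmitter family lies to the right of 0 for 11 of 11 features, in gonad the nucleotide sugar family has 8 higher and 0 lower calls, and SLC38A5 stands alone at 7.49 in muscle.

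In gonad 48 of the 192 were higher and 51 lower (51.6%; background 60.2%, 29.5% higher and 30.7% lower). Recovered totals gave 112 higher and 20 lower, with a shift of 1.09, beside 58.4% higher and 9.74% lower of all features. Carriers of nucleotide sugars had 8 higher and 0 lower of 23 (19 and 0 under recovered totals). They were led by slc35a4, the 1 enriched feature, which stood at 75.3 and 78.4 FPKM in female and 24.8 and 13.1 in male gonad, against 1.62 to 12.4 elsewhere. It was 2.41 ± 0.22 higher (adjusted p = 1.2e-06) and 2.11 ± 0.31 above muscle. SLC35B2, which brings the sulfate donor PAPS into the Golgi, stood at 19.9 and 17.4 FPKM in female and 20.1 and 18.3 in male gonad, against 1.07 to 14.4 elsewhere (1.33 ± 0.26, 0.00067). Among nucleoside carriers 4 of 5 were higher and 1, Slc29a2, lower. SLC29A1 (DN133263_c0_g4) stood at 26.8 and 50.96 FPKM in female and 46.8 and 34.6 in male gonad, against 1.96 to 24.8 elsewhere (1.33 ± 0.31, 0.0022).

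The family of vitamin, choline and haem carriers had 2 of 12 higher and 6 lower in gonad (4 and 0 under recovered totals). One of those higher, SLC52A2, a riboflavin transporter, stood at 15.9 and 16.1 FPKM in female and 22.7 and 13.04 in male gonad, against 1.22 to 5.08 elsewhere (1.88 ± 0.19, adjusted p = 2.5e-06). Mitochondrial carriers had 11 of 39 higher and 8 lower (26 and 2). Among those higher, the S-adenosylmethionine carrier slc25a26 was 1.48 ± 0.33 higher (0.0015), the mitochondrial iron importer slc25a37 (DN127196_c0_g2) 1.30 ± 0.18 (5.1e-05) and Slc25a17, a peroxisomal carrier of coenzyme A and other cofactors, 1.22 ± 0.22 (0.00037). In each of these named features the 4 gonad libraries lay above the 12 others, which was a condition of naming them. SLC4A1AP, a protein named after its contact with a carrier and no transporter itself, was 1.20 ± 0.18 higher. SLC10A4, an SLC10 member known from synaptic vesicles in mammals, was 2.72 ± 0.23 higher (6.3e-07), with 798 and 607 FPKM in female and 53.9 and 29.6 in male gonad, against 2.96 to 23.2 elsewhere. Its call combines the sexes, whose gonads differ over 10-fold in it.

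Of 16 amino acid carriers 1 was higher, 7 were lower and 8 did not pass in gonad, with 8 higher and 6 lower under recovered totals. The glutamine carrier Slc38a3 (DN148582_c3_g1) stood at 3.85 and 5.39 FPKM in female and 1.26 and 1 in male gonad, against 8.24 to 60.1 elsewhere (-4.54 ± 0.41, adjusted p = 1e-06). SLC38A3 (DN146300_c1_g1) and SLC1A4 had differences of -4.60 ± 0.66 and -4.55 ± 0.39. The 4 monocarboxylate features were lower in 4 of 4 (0 higher and 1 lower under recovered totals), at -1.49 to -2.96. Slc6a8 (-2.80 ± 0.31) and the 4 SLC6A6 features (-1.61 to -3.17) were lower, while the betaine carrier SLC6A12 was higher (1.82 ± 0.37).

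Muscle had 42 features higher and 43 lower of 192 (44.3%; background 45.1%, 21.7% higher and 23.3% lower). Recovered totals gave 25 higher and 89 lower, with a shift of -0.69, beside 9.7% higher and 49.2% lower of all features. SLC38A5, a sodium-coupled carrier of glutamine and other neutral amino acids, showed the widest range of the 192. It stood at 164 and 140.2 FPKM in female and 310.2 and 105 in male muscle, against 0.43 to 6.39 (median 1.07) in the 12 other libraries. It was 7.49 ± 0.29 higher (adjusted p = 1.8e-09) and 6.90 ± 0.46 above liver, the nearest tissue (2.6e-07). The 3 enriched features were completed by the mitochondrial carriers Slc25a11 and Slc25a12, both of the malate-aspartate shuttle that carries NADH electrons into mitochondria. Slc25a11 stood at 279 and 162 FPKM in female and 260 and 363 in male muscle, against 4.17 to 146 elsewhere (3.41 ± 0.24, 1.3e-07). Slc25a12 (DN146920_c1_g1) stood at 58.3 and 48.9 FPKM in female and 33 and 17.4 in male muscle, against 6.02 to 35.5, so male muscle overlapped the others by level while counts gave 2.62 ± 0.23 higher (1.3e-06). Under recovered totals the differences over brain, the nearest tissue, were 1.98 for Slc25a11 and 1.27 for Slc25a12, short of 2, and SLC38A5 kept 6.84 over liver. A second feature named SLC25A12 (DN148427_c0_g1) did not share the muscle pattern. It stood at 5.42 and 3.37 FPKM in female and 6.8 and 13.09 in male muscle, against 0.86 to 66.07 (median 18.245) elsewhere.

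Mitochondrial carriers in muscle had 13 higher and 7 lower of 39 (6 and 16 under recovered totals). Among the higher ones were the phosphate carrier SLC25A3 (DN128688_c2_g1, 1.96 ± 0.26), slc25a30 (2.90 ± 0.20) and SLC25A20, the acylcarnitine carrier of fatty acid oxidation (1.10 ± 0.19). A second SLC25A3 feature (DN127774_c1_g1) was not clear of other tissues. It stood at 6.45 and 4.56 FPKM in female and 11.59 and 12.34 in male muscle, against 1.6 to 34.66 elsewhere. SLC25A6 was higher by counts (1.89 ± 0.33), but its FPKM ran the other way, at 50.8 and 101 in female and 301 and 377 in male muscle, against 246 to 2265 (median 368) elsewhere. The citrate carrier Slc25a1 went the other way, at 1.41 and 1.15 FPKM in female and 0.57 and 1.57 in male muscle, against 6.14 to 71.9 elsewhere (-3.67 ± 0.26, adjusted p = 1.7e-07). The fatty acid family split in muscle: SLC27A1 was higher (1.85 ± 0.22) and both SLC27A2 features were lower (-3.18 ± 0.34 and -2.51 ± 0.47). Of 22 metal carriers 2 were higher, slc39a13 (1.93 ± 0.24) and the magnesium carrier Slc41a1 (2.16 ± 0.20), and 10 lower, SLC31A1 among them (-1.82 ± 0.25, 6.5e-05). SLC9A3R1, a scaffold protein and no transporter, Slc6a15 and the peroxisomal Slc25a17 had differences of -2.38 ± 0.35, -1.83 ± 0.28 and -1.69 ± 0.28. SLC37A4 was higher in muscle (2.40 ± 0.29), as was the creatine carrier Slc6a8 (1.78 ± 0.24), which stood at 180 and 116 FPKM in female and 121 and 83.6 in male muscle. In these 4 comparisons 27 feature results were named by rule, chosen because they passed and their tissue libraries lay clear of all others. All 27 still passed when any 1 of the 16 libraries was removed. The choice itself favours this outcome, so it adds no separate support.

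**Figure D3:**
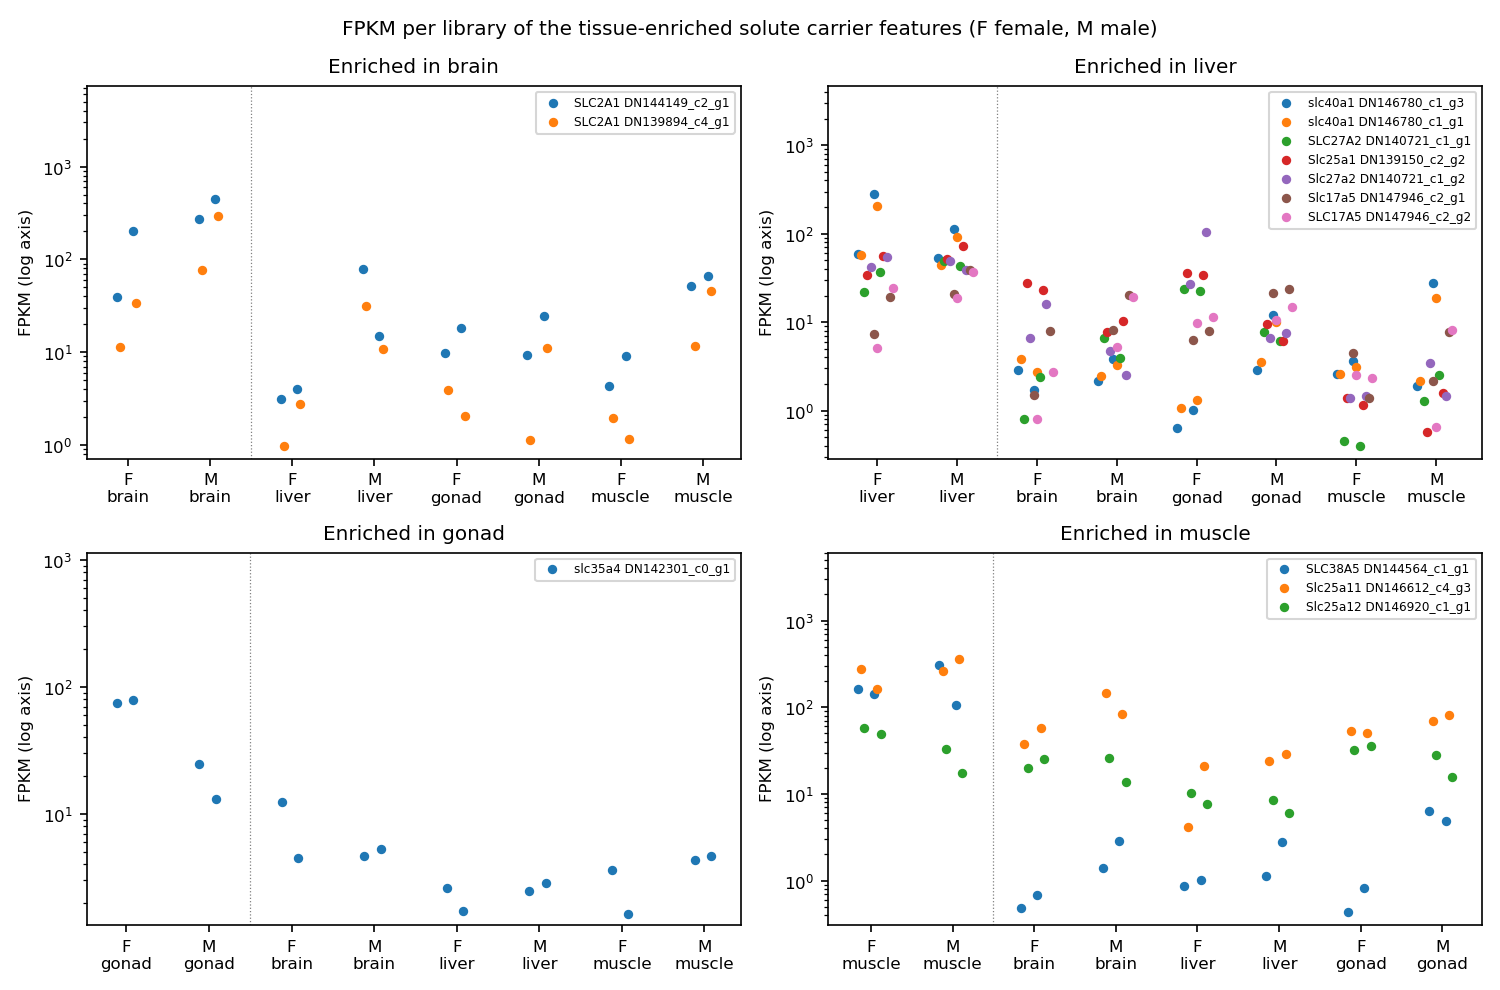
FPKM (log axes) in each library of the 13 tissue-enriched features, a panel per tissue, with that tissue's groups left of the dotted line and female left of male, a point per library. In muscle SLC38A5 stands at 105 to 310.2 FPKM against at most 6.39 in the other tissues, and in gonad slc35a4 stands at 13.1 to 78.4 against at most 12.4.

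The sexes were compared within each tissue, as female minus male. In gonad 56 of the 192 were higher in females and 34 lower (46.9%; background 47.1%, 23.3% higher and 23.8% lower), with a median of 0.28 beside -0.02 over all features. Recovered totals gave 26 higher and 51 lower, with a shift of -0.70, beside 11.6% higher and 34.8% lower of all features. The split of calls thus turns round under that scaling. The medians were then -0.41 for the 192 and -0.72 for all features, so the 192 stood above the bulk under both scalings. Without male gonad 2 the count was 51, and with each other gonad library left out it was at most 73. Markers of other cells moved with sex in gonad: CD74, a leukocyte gene of antigen presentation, averaged 77.89 FPKM in female and 2192 in male gonad, and ptprc 2.445 and 54.23. Summed over the 4 leukocyte features, female gonad stood at 53.54 and 156.7 FPKM and male gonad at 547.1 and 4098. Their part in the results was not tested.

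Among the 39 mitochondrial carriers 17 were higher in female gonad, 5 were lower and 17 did not pass, and under recovered totals the balance turned round, with 6 higher and 9 lower. Among the 23 nucleotide sugar carriers 11 were higher and 2 lower (5 and 3). SLC25A6 stood at 2265 and 2038 FPKM in female and 386 and 349 in male gonad (3.96 ± 0.69, adjusted p = 0.00058). Slc25a1 (2.84 ± 0.37), SLC25A32, a carrier of folate and FAD (2.46 ± 0.33), and slc25a37 (DN127196_c0_g2, 2.29 ± 0.35) were higher in females, and Slc25a10, a dicarboxylate carrier, was lower (-2.43 ± 0.50). In the Golgi family slc35b4 (DN147619_c0_g1, 2.72 ± 0.39), slc35a4 (2.71 ± 0.44), the CMP-sialic acid carrier SLC35A1 (2.45 ± 0.39) and slc35b1 (2.27 ± 0.34) were higher in females. SLC35A1 stood at 74.3 and 67.4 FPKM in female and 24.8 and 18.7 in male gonad.

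The largest difference toward females was SLC10A4, with 798 and 607 FPKM in female and 53.9 and 29.6 in male gonad (4.63 ± 0.51, adjusted p = 4e-05). Both groups were well counted, with 17019 and 14572 counts in female and 1374 and 886 in male gonad. SLC3A2, the heavy chain that carries several amino acid exchangers to the cell surface, stood at 341 and 381 FPKM in female and 35.99 and 54.8 in male gonad (3.86 ± 0.71, 0.00088). Both SLC27A2 features were higher in female gonad (3.80 ± 0.69 and 2.92 ± 0.46), where DN140721_c1_g2 stood at 27.2 and 104 FPKM, against 6.70 and 7.58 in male gonad. The sodium bicarbonate carrier Slc4a4 (DN129668_c1_g3) stood at 33.8 and 49.4 FPKM in female and 7.38 and 7.17 in male gonad (3.71 ± 0.72, 0.0012).

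In the other direction, inorganic ion carriers had 3 of 27 higher and 6 lower in female gonad (2 and 11 under recovered totals), metal carriers 6 of 22 and 5 (2 and 8) and amino acid carriers 5 of 16 and 4 (2 and 4). Slc9a7, a sodium-proton exchanger of the trans-Golgi network, stood at 1.20 and 0.56 FPKM in female and 10.5 and 13.8 in male gonad (-3.12 ± 0.57, adjusted p = 0.00087). The magnesium carrier Slc41a1 stood at 0.43 and 0.50 FPKM in female and 7.05 and 7.97 in male gonad (-3.26 ± 0.42, 9.2e-05). SLC7A1, which takes up arginine and lysine, stood at 0.64 and 0.63 in female and 22.8 and 27.6 in male gonad (-4.71 ± 1.11, 0.0039). That the female and male libraries did not overlap in these features was a condition of naming them, as was passing the threshold. Such a choice favours passing again with a library left out, so that outcome adds no separate support. The putative amino acid carrier slc38a10 was lower in females as well (-2.5 ± 0.41, 0.00042). Of the 16 gonad features named by rule, 15 passed with each gonad library left out, and slc44a2 (DN141613_c3_g2, -2.93 ± 0.84) did not pass without female gonad 1 (adjusted p = 0.082).

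Brain had 18 features higher in females and 48 lower (34.4%; background 39.8%, 21.4% higher and 18.4% lower), with a median of -0.24 beside 0.12 over all features. Recovered totals gave 8 higher and 68 lower, with a shift of -0.58, beside 10.5% higher and 26.7% lower of all features. The count was 24 without female brain 1, 33 without female brain 2, 52 without male brain 1 and 30 without male brain 2. Markers moved with sex here too: MBP averaged 1611 FPKM in female and 144.7 in male brain, haemoglobin hbb1 9686 and 395.4, and Atp2a1, a calcium pump of muscle, 1.11 and 68.3. The rest of the muscle list did not move as a set. In female and male brain RYR1 averaged 5.725 and 20.27 FPKM, TTN 6.88 and 10.66, and skeletal actin acta1 21.68 and 20.85. Summed over the 5 matched neuron and glia features, female brain stood at 1637 and 2298 FPKM and male brain at 742.7 and 426.2, a difference carried by MBP, since GNG13 (102.9 FPKM in female and 149.6 in male brain) and ENO2 (29.41 and 138.9) ran the other way. Summed over the 2 blood features, female brain stood at 7143 and 17410 FPKM and male brain at 33.57 and 871.6. Their part in the results was not tested.

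Carriers of inorganic ions and of sugars had more lower than higher calls in female brain under both scalings. Of the 27 ion carriers 1 was higher in females and 14 lower (0 and 17 under recovered totals; median -1.48), and of the 12 sugar carriers 0 and 6 (0 and 6; median -1.52). Slc4a7 (DN148424_c0_g1), a sodium bicarbonate carrier, stood at 1.55 and 1.38 FPKM in female and 56.5 and 29.7 in male brain (-4.58 ± 0.85, adjusted p = 0.0038), and Slc9a7 at 0.76 and 0.95 in female and 12.7 and 13.4 in male brain (-3.33 ± 0.58, 0.0035). The phosphate carrier slc20a2 stood at 4.80 and 3.88 FPKM in female and 50.9 and 31.1 in male brain (-2.63 ± 0.46, 0.0035). Slc4a10 (-2.97 ± 0.75) and Slc4a8 (-2.23 ± 0.59) were lower in females. The exception was a second Slc4a7 feature (DN135023_c1_g1), higher in females (2.32 ± 0.74, 0.025). Both SLC37A1 features, glucose-6-phosphate exchangers, were lower (-3.41 ± 0.87 and -3.32 ± 0.83), as were SLC25A16 (-4.01 ± 0.92) and SLC38A3 (-3.27 ± 0.94). Slc4a10, SLC25A16, SLC38A3, both SLC37A1 features and the second Slc4a7 feature each lost their call with at least 1 of the 4 brain libraries left out, at adjusted p of up to 0.086, 0.063, 0.29, 0.12, 0.094 and 0.21.

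Toward females stood SLC35C2, of the nucleotide sugar family, at 46.4 and 33.1 FPKM in female and 20.5 and 15.7 in male brain (2.11 ± 0.38, adjusted p = 0.0036), and Slc25a1, the citrate carrier, at 27.4 and 23.4 in female and 7.80 and 10.3 in male brain (2.11 ± 0.36, 0.0034). SLC25A22 (DN132744_c2_g2, 2.05 ± 0.45), Slc44a1 (1.82 ± 0.39), SLC44A2 (DN132434_c3_g2, 2.22 ± 0.60) and Slc27a2 (2.22 ± 0.68) were also higher. By level the second SLC25A22 feature (DN140009_c0_g1) ran the other way, at 11.28 and 16.64 FPKM in female and 31.83 and 40.65 in male brain. Taurine carriers split: SLC6A6 (DN130894_c4_g1) stood at 88.7 and 177 FPKM in female and 43.2 and 60.1 in male brain (3.03 ± 0.83, 0.014), while DN142201_c1_g2 stood at 8.21 and 5.29 in female and 47.4 and 116 in male brain (-2.95 ± 0.98, 0.03). Of the 16 brain features named by rule, 4 passed with each brain library left out: Slc4a7 (DN148424_c0_g1), Slc9a7, SLC35C2 and Slc25a1. The other 12 lost their call with at least 1 library left out, most often male brain 2, with adjusted p of 0.059 (SLC25A22), 0.061 (Slc44a1), 0.089 (SLC44A2), 0.18 (Slc27a2) and 0.09 (SLC6A6 DN130894_c4_g1) without it, and 0.16 for SLC6A6 DN142201_c1_g2 without female brain 2.

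Few features passed between the sexes in liver and muscle. In liver 3 features were higher in females and 4 lower (3.65%, with a background of 2.78%, 1.46% higher and 1.33% lower). Recovered totals gave 1 and 5, with a shift of -0.23, beside 0.713% and 1.13% of all features. The count was 0 without female liver 1 or without male liver 1 and 25 without female liver 2. SLC7A1 stood at 1.78 and 7.06 FPKM in female and 333 and 66.3 in male liver (-5.59 ± 1.11, adjusted p = 0.022). The pyrimidine nucleotide carrier slc25a33 stood at 4.36 and 8.81 in female and 265 and 88.9 in male liver (-4.51 ± 0.75, 0.011), the creatine carrier slc16a12b at 1.07 and 2.31 in female and 102 and 23.6 in male liver (-4.78 ± 0.89, 0.016) and SLC1A5, which takes up glutamine, at 1.57 and 1.49 in female and 41.01 and 13.6 in male liver (-4.05 ± 0.81, 0.024). In each of the 4 both male libraries lay above both female ones, which was a condition of naming them, and male liver 1 was the highest.

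Toward females in liver stood slc25a38a, a glycine importer of haem synthesis, at 31.5 and 40.6 FPKM in female and 0.71 and 3.73 in male liver (4.09 ± 0.75, adjusted p = 0.015). SLC10A1 (1.60 ± 0.35, 0.035) and SLC25A32 (1.49 ± 0.34, 0.039) were higher too. None of the 7 kept its call with each liver library left out, with adjusted p of up to 0.12 to 0.24. Other cell markers moved in liver: hbb1 averaged 5308 FPKM in female and 137.9 in male liver, and the pancreatic protease CTRL 348.4 and 23.97. Their part was not tested.

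In muscle 7 features were higher in females and 2 lower (4.69%, with a background of 2.96%, 1.2% higher and 1.75% lower). Recovered totals gave 3 and 27, with a shift of -0.68, beside 0.664% and 12.2% of all features. The 9 kept their sign under that scaling, and which features passed changed. SLC37A4 stood at 40.1 and 32.96 FPKM in female and 6.43 and 8.52 in male muscle (2.93 ± 0.59, adjusted p = 0.02). The coenzyme A carrier slc25a42 had 2 features higher (2.77 ± 0.62 and 2.55 ± 0.58), slc44a2 had 2 (DN138483_c1_g1, 2.61 ± 0.40, and DN141613_c5_g1, 2.29 ± 0.51), and SLC1A4 (2.37 ± 0.54) and slc7a6os (1.15 ± 0.29), a protein that is no transporter, were higher. The mitochondrial iron carrier slc25a28 (DN140678_c0_g1) stood at 14.04 and 14.7 FPKM in female and 76.9 and 138 in male muscle (-2.29 ± 0.40, 0.01), and the phosphate carrier slc20a1b (DN141097_c0_g3) had a difference of -2.12 ± 0.51 (0.04). None of the 9 kept its call with each muscle library left out, with adjusted p of up to 0.06 to 0.21, and the count was 1 without female muscle 1 and 0 without female muscle 2. Haemoglobin hbb1 averaged 4441 FPKM in female and 375.2 in male muscle, and its part was not tested.

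**Figure D4:**
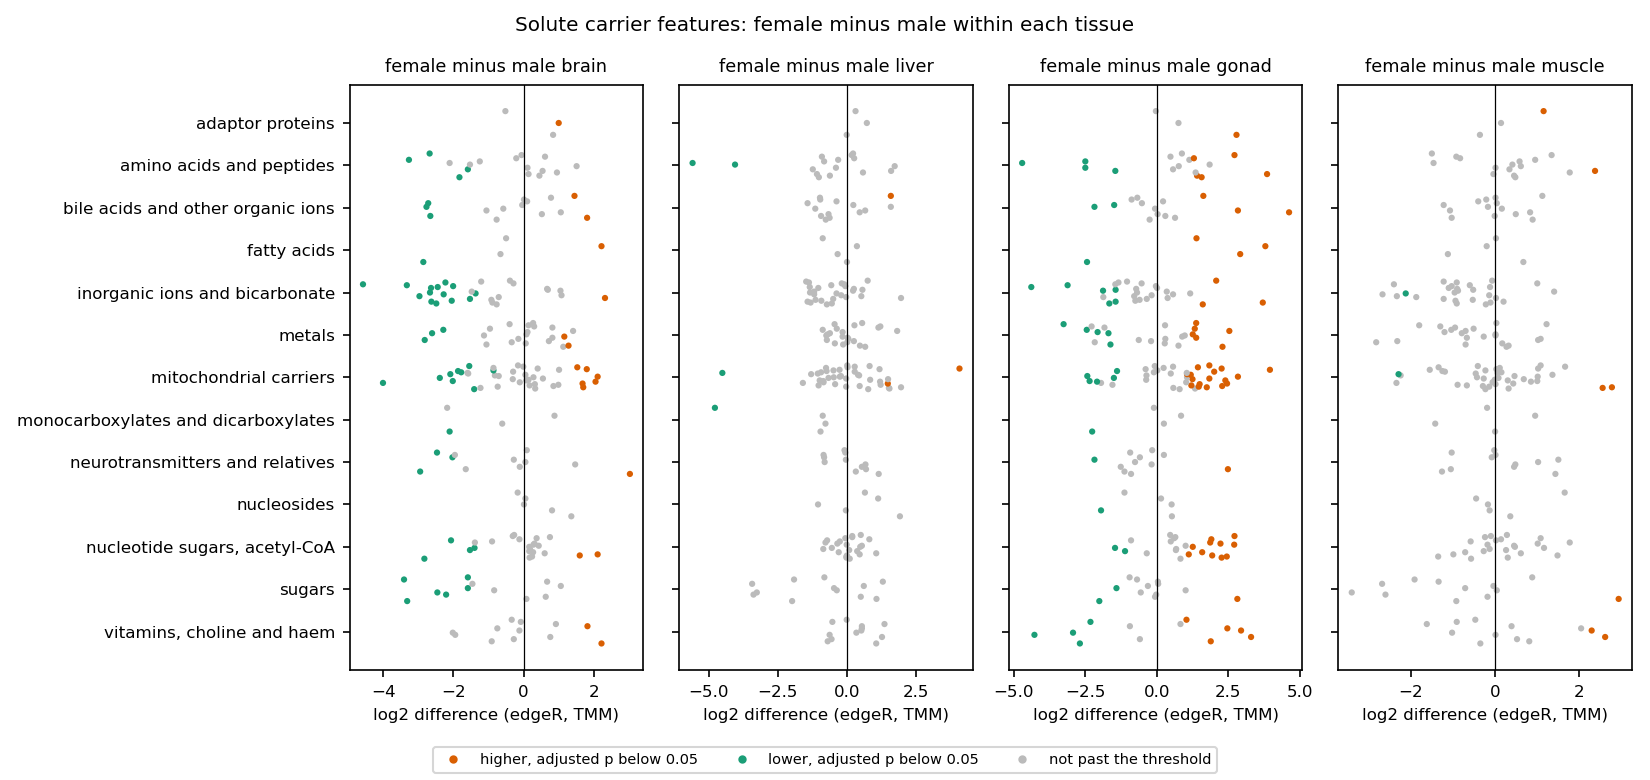
Log2 difference female minus male (horizontal axes, edgeR with TMM) of each of the 192 features within brain, liver, gonad and muscle, by substrate family, a point per feature, orange where higher and green where lower in females at an adjusted p below 0.05. Inorganic ion and sugar carriers in brain lie mostly left of 0 (14 and 6 lower calls against 1 and 0 higher), and mitochondrial carriers in gonad have 17 higher and 5 lower calls.

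The sex difference in gonad was then tested against the mean sex difference of brain, liver and muscle. It was more positive in gonad for 51 of the 192 features and more negative for 17 (35.4%; background 35.7%, 17.2% and 18.5%). Recovered totals gave 38 and 20, with a shift of -0.19, beside 12.2% and 19.5% of all features. Without male gonad 2 the count was 42. Nucleotide sugar carriers had 9 positive and 0 negative calls (6 and 1 under recovered totals), mitochondrial carriers 13 and 4 (10 and 5), and the fatty acid family 3 and 0 of 4 (3 and 0). The largest positive values were those of Slc4a4 (DN129668_c1_g3, 4.48 ± 0.82), SLC25A6 (4.23 ± 0.76) and SLC3A2 (4.19 ± 0.79). SLC3A2 stood at 61.1 and 80.0 FPKM in female and 107 and 264 in male brain, opposite to its order in gonad. Conversely SLC25A22 (DN132744_c2_g2), higher in female brain, stood at 0.63 and 0.82 FPKM in female and 5.58 and 4.18 in male gonad, a difference of differences of -3.46 ± 0.56. The sex difference in liver was set against that of brain and muscle. With edgeR it gave 0 calls among the 192, where 26 had an unadjusted p below 0.05. The background by edgeR was 0.117% (0.0676% positive and 0.0492% negative). DESeq2 gave 9 calls, but its share over all features is not given here, so the 9 are not read as a result.

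Features that share a name did not always share a pattern. Of 33 names with more than 1 feature, 15 had all pairs of features correlated above 0.8 over the 16 libraries (log2 FPKM), such as slc40a1 (0.99), SLC2A1 (0.93 to 0.97) and slc20a1b (0.97). Another 8 had a pair below 0.3, among them SLC35D2 (-0.04), SLC5A6 (0.09), SLC25A3 (0.15) and SLC25A22 (0.17). These correlations are descriptions over libraries that include the same tissues, and features of 1 assembled cluster can share reads, so their counts could be split between them.

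The widest case was slc44a2, a choline transporter-like gene with 6 features and pairwise correlations of -0.76 to 0.98. Of these, 3 were higher in female than in male gonad: DN138483_c1_g1, DN141613_c5_g1 (2.95 ± 0.53) and DN141613_c5_g2 (2.47 ± 0.64). DN138483_c1_g1 stood at 90.4 and 136 FPKM in female and 17.8 and 13.2 in male gonad (3.30 ± 0.42, adjusted p = 8.6e-05), and at 69.1 and 113 in female and 12.6 and 36.1 in male muscle. The remaining 3 (DN141613_c3_g1, DN141613_c3_g2 and DN132434_c3_g2) were lower in female gonad. DN141613_c3_g1 stood at 0.58 and 0.54 FPKM in female and 14.2 and 20.1 in male gonad (-4.28 ± 0.96, 0.0028), and DN132434_c3_g2 at 0.71 and 4.28 in female and 25.2 and 25.4 in male gonad (-2.69 ± 0.62, 0.0035). The files do not tell whether they are separate genes or parts of one.

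**Figure D5:**
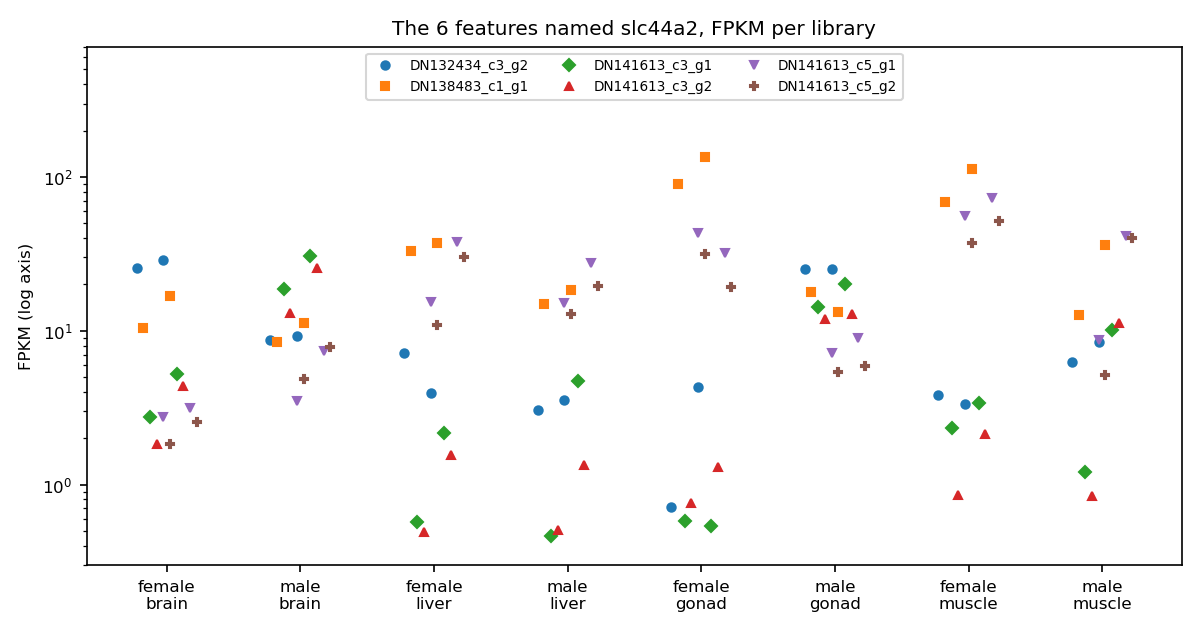
FPKM (log axis) of the 6 features named slc44a2 in each library of the 8 groups, female left of male within each tissue, a marker per feature and library. In gonad DN138483_c1_g1 stands at 90.4 and 136 FPKM in females and 17.8 and 13.2 in males, while DN141613_c3_g1 stands at 0.58 and 0.54 in females and 14.2 and 20.1 in males.

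Other transport proteins were counted beside the carriers, from lists chosen by name. The sodium pump, whose gradient drives many carriers, had 7 features (ATP1A and ATP1B), of which 4 were higher and 1 lower in brain (4 and 0 under recovered totals), 4 and 0 in liver (3 and 3), 0 and 4 in gonad (0 and 0) and 0 and 4 in muscle (0 and 6). In female gonad against male gonad 1 was higher and 4 lower (0 and 4). The V-type proton pump, which acidifies organelles, had 17 of 29 features higher in brain and 2 lower (21 and 1). In female against male brain 3 of its features were higher and 13 lower (2 and 16). ATP6V1B2 averaged 13.28 FPKM in female and 223.3 in male brain. Of 16 calcium and copper pumps 0 were higher and 12 lower in female brain (0 and 15), with a median of -3.02, and ATP2A2 (DN124485) averaged 0.97 FPKM in female and 49.15 in male brain (-4.86 ± 0.91). ABC transporters, which pump with ATP and are not solute carriers, had 0 of 20 higher and 7 lower in brain, and 9 and 3 in gonad (17 and 2). Both features of the mitochondrial pyruvate carrier were higher in muscle and lower in gonad (0 and 0 in each under recovered totals), and Mpc2 was higher in female than in male gonad (2.30 ± 0.37, adjusted p = 0.00038).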

How the data were processed

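RNA of 16 libraries (2 for each of 8 sex and tissue groups) was sequenced on an Illumina HiSeq instrument, per the labels. The authors' table holds, per the file headers, an expected count and an FPKM for each feature and library. The counts were estimated with RSEM, per the submitters' processing notes. The deposited expected counts are whole for 96.2% of values (within 1e-06), and the rest were rounded. The deposited FPKM values were used as levels. The sources used here give no aligner, version or strand setting. The labels' extraction text describes 24 libraries, and 16 further value columns of no listed sample were not used. Annotation and isoform lengths bear on FPKM: the effective length of 107 of the 192 features varied over 1.5-fold between libraries. Features were kept without a filter.

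The main test was edgeR 4.0.16 (R 4.3.3), quasi-likelihood, two-sided, TMM (factors 0.623 to 1.845), with 8 group means and 8 residual degrees of freedom, Benjamini-Hochberg over 16270 features within each of 10 comparisons; the median biological coefficient of variation was 0.34. The SE is the log2 difference over the square root of F. DESeq2 1.42.0 and limma 3.58.1 on log2(FPKM + 1) and log2(FPKM + 0.1) were alternatives, with other scalings, filters, the compared groups alone, a replicate block and each library left out. Library totals for the scaling by recovered totals (9659477 to 16642904) came from the ratio of count to FPKM. The edgeR script was tested on simulated data.

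Features named in the text were, for each tissue, those past the threshold whose 4 libraries did not overlap the 12 others (up to 10 higher and 5 lower), for each sex comparison up to 8 each way whose 2 and 2 libraries did not overlap, for the interactions up to 5 each way, and the 3 with the highest mean in each family; other called features are examples of their family chosen after their values were seen. Results of a few features that meet these rules are not reported here, while counts include them. The members, substrate families and marker lists were chosen with earlier results of these data known. The list of sodium pump genes as first written took in ATP11 and ATP13 genes by their prefix (14 features), and ATP1A and ATP1B alone were counted instead. Correlations by replicate number between groups ran from -0.308 to 0.587, 13 of 28 over 0.1. Among male groups 6 of 6 pairs of tissues were over 0.1 (0.187 to 0.587), among female groups 3 of 6 (-0.308 to 0.226), and between female and male of a tissue 1 of 4. Not every pair passed, so the main fit has no block.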

Additional observations from a re-analysis of the deposited data

Results flagged for a closer look

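The solute carrier features listed here were singled out because their sex difference in gonad differed from the mean sex difference of brain, liver and muscle, tested as an interaction in edgeR with Benjamini-Hochberg adjustment. Of these, 5 were more positive in gonad: Slc4a4 (DN129668_c1_g3) by 4.48 ± 0.82 (adjusted p = 0.0013), SLC25A6 by 4.23 ± 0.76 (0.0012), SLC3A2 by 4.19 ± 0.79 (0.0016), SLC10A4 by 3.85 ± 0.54 (0.00029) and SLC27A2 (DN140721_c1_g1) by 3.63 ± 0.54 (0.00039). Others were more negative: SLC44A2 (DN132434_c3_g2) at -3.67 ± 0.72 (0.0019), SLC25A22 (DN132744_c2_g2) at -3.46 ± 0.56 (0.00061), slc44a2 (DN141613_c3_g1) at -3.42 ± 1.08 (0.024) and Slc41a1 at -3.39 ± 0.46 (0.00026). Removing any 1 of the 16 libraries left the call in place for each of them but the slc44a2 feature, which did not pass without female gonad 1 (0.099), female gonad 2 (0.094), male gonad 2 (0.073) or female liver 2 (0.053). The features were chosen for large interaction values past the threshold in these same libraries. That choice favours this outcome, so it adds no separate support. SLC27A2 illustrates the contrast between tissues: it stood at 23.7 and 22.4 FPKM in female and 7.75 and 6.06 in male gonad, but at 21.8 and 37.4 in female and 49.7 and 43.3 in male liver.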

How the results depend on the processing

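None of the 85 feature results named by rule changed sign under the alternatives run. SLC25A6 in muscle, outside the 85, was higher by counts while its FPKM ran the other way. Under recovered totals the balance of higher and lower calls turned round in brain (53 and 27, against 31 and 54) and liver (43 and 76, against 79 and 31). In gonad it went from 48 and 51 to 112 and 20, and in muscle from 42 and 43 to 25 and 89. Between the sexes it turned round in gonad (26 and 51, against 56 and 34) and muscle (3 and 27, against 7 and 2). These are raw splits. In liver, and between the sexes in gonad, the median of the 192 stayed above that of all features under both scalings. Among counts of calls, female against male liver gave 19 by DESeq2 and 0 with only the groups compared, against 7; female against male muscle gave 26 by DESeq2, 30 under recovered totals, 15 and 21 by limma with a pseudocount of 1 and 0.1, 14 with a replicate block and 0 with only the groups compared, against 9. The gonad interaction gave 45 by limma with 0.1 against 68, and the liver interaction 9 by DESeq2 against 0. Enriched features under recovered totals and limma with 1 and with 0.1 were 4, 4 and 4 in brain (against 2), 2, 2 and 2 in liver (7), 6, 6 and 8 in gonad (1) and 1, 1 and 1 in muscle (3). For calls under recovered totals the shares of all features stand with each comparison. They are not given for the other alternatives or for these enriched counts, so those counts describe the settings and not the carriers. Without its highest feature the level of a family over other tissues was 1.86 for adaptor proteins in gonad (log2, against 1.41) and 0.53 for fatty acid carriers in liver (against 0.99). Other families moved too. Summed FPKM went from 3717 to 1566 for mitochondrial carriers in female gonad and from 819.8 to 456.5 for sugar carriers in male brain. With each library left out the ranges were 57 to 95 in brain, 101 to 123 in liver, 83 to 105 in gonad, 69 to 90 in muscle, 24 to 52, 0 to 25, 51 to 73 and 0 to 8 between the sexes in brain, liver, gonad and muscle, 42 to 78 and 0 to 0 for the gonad and liver interactions, and 0 to 4, 5 to 10, 0 to 1 and 2 to 5 for enriched features in brain, liver, gonad and muscle. The causes were not tested. Of the 85 feature results named by rule, 85 kept their call by DESeq2, 77 under recovered totals, 75 by limma with either pseudocount and 32 of 48 with only the groups compared. All 85 were chosen for passing in the main fit to the same libraries, which favours keeping the call. Same-numbered libraries deviated together among male tissues but not among all groups. The replicate block kept 85, and female against male muscle is the 1 comparison whose count it moved over 1.5 times. That block was 1 term shared by both sexes, so it does not test sharing of fish within a sex, which was not modelled. The filter on low counts removed 0 features.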
